A study of Mus musculus with 2 samples.

Results

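The miR-99/100 and miR-125 families are represented in the mouse genome by 6 microRNA genes: Mir99a, Mir99b and Mir100, and Mir125a, Mir125b-1 and Mir125b-2. They were taken by name, through their Ensembl gene identifiers, from the 1973 miRNA genes counted in small RNA libraries of the embryonic mouse forebrain, and all 6 had a row. The forebrain came from B6NCrl embryos of both sexes at day 15.5 of development and was not otherwise treated. The only group held 2 libraries of RNA below 30 nt, replicate 1 from a pool of 78 embryos and replicate 2 from a pool of 62. The labels call them biological replicates and give both pools the same donor identifier, and the sources used here do not say whether litters, dissection days or library batches were shared. With 1 group there was no comparison between conditions, so every test below compares these 2 libraries, and in pooled tissue fewer cells of a type and less RNA per cell cannot be told apart.

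A microRNA (miRNA) is a short RNA cut from one arm of a hairpin precursor. It guides an Argonaute protein to messenger RNAs that pair with its seed, bases 2 to 8, and lowers their output, so miRNAs with the same seed are grouped into a family. miR-125 is the vertebrate counterpart of the worm miRNA lin-4, and miR-99/100 belongs to one of the oldest miRNA families of animals. Genes of both families lie beside let-7 genes, whose miRNAs accumulate as embryonic tissue differentiates, and miR-125b is known as a miRNA abundant in the nervous system.

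The mature sequences show what holds each family together and what tells its members apart. All 6 genes matched the RefSeq miRNA table (build GRCm38.p6), which gave 12 arms with 11 different sequences. The 5p arms, from the 5′ side of the hairpin, are shown with the seed in capitals.
Mir99a 5p: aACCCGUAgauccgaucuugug
Mir100 5p: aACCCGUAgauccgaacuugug
Mir99b 5p: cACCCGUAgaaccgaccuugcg
Mir125a 5p: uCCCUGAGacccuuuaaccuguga
Mir125b-1 5p: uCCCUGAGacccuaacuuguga
Mir125b-2 5p: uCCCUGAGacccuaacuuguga

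The 3 genes of the miR-99/100 family share the seed ACCCGUA. Counted from 1 at the 5′ end, the Mir99a and Mir100 arms differ at a single base of 22, U16A with the Mir99a base first. The Mir99b arm differs from Mir99a at 4 bases, A1C, U11A, U16C and U21C, of which none lies in the seed. The 3 genes of the miR-125 family share the seed CCCUGAG. The 5p arms of Mir125b-1 and Mir125b-2 are the same over all 22 bases, and they share their first 13 bases with the 24-base arm of Mir125a. The members of a family were therefore told apart by few bases, and the Mir125b copies by none within the 5p arm.

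The copies of miR-125b differ in the opposite arm of the hairpin, which is shown because it is a mature sequence that belongs to 1 locus.
Mir125b-1 3p: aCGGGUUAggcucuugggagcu
Mir125b-2 3p: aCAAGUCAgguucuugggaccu
Mir125a 3p: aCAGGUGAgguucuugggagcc
These 3 arms have 3 different seeds. In the miR-99/100 family, Mir99a and Mir99b share a seed in the 3p arm as well, and Mir100 does not.
Mir99a 3p: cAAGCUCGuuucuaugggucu
Mir99b 3p: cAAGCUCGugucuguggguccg
Mir100 3p: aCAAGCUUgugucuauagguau
The counts are per gene and do not separate the arms, so no value below can be ascribed to 1 arm. How much each arm gave to a row was not tested. Of the 6 members, Mir125b-1 and Mir125b-2 were the ones with an arm found, letter for letter, in the precursor of another annotated miRNA gene.

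That identity bears on the counts. Reads placed at more than 1 locus were kept in a row of their own, with 5240531 reads in replicate 1 (44.6% of the library) and 5543873 in replicate 2 (42.4%). The arms of the members are 21 to 24 bases long, and levels are compared between genes with no correction for length. A read that matches only the shared 5p arm of miR-125b cannot be assigned to either copy. How many reads of that row were miR-125b was not analysed here, and the levels of Mir125b-1 and Mir125b-2 are therefore uncertain and may be too low. Replicate 1 held 4464927 counts over gene rows and replicate 2 held 4753555. Levels are given as CPM, the count divided by that total and scaled to 1000000, as mean ± SD over n = 2 libraries.

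The tissue label was checked against miRNAs that mark cell types. Of 13 genes listed for forebrain neurons and progenitors, 12 had a row and 9 passed the detection limit of 10 counts in both libraries, led by Mir137 at 9092 ± 926 CPM. The list summed to 2.16% and 2.19% of gene counts, and the lowest of its genes was Mir124a-3 at 1.05 CPM, which shares its sequence with other copies. Most genes of this list are numbered copies of a miRNA, whose reads may fall among those placed at more than 1 locus. The sum may therefore be too low, by an amount that was not tested, and cannot be ranked against the other lists. Of the markers of other cells, endothelial Mir126a held 1.59% and 1.64%, and the 6 listed mesenchyme and mural cell genes summed to 0.600% and 0.676%. The blood, immune, liver, muscle and Hox-cluster lists each summed to at most 0.0418% in either library, and 3 of the 4 muscle genes with a row had no count. Most of the muscle list are numbered copies too, so these zeros do not show that muscle miRNAs were absent. The part of any of these cells in the levels of the 6 members was not tested.

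All 6 members were detected, whereas 18.8% of all 1973 rows were. Mir99a was the first of the family in level, with 1260220 counts in replicate 1 and 1479951 in replicate 2. These were 282249 CPM and 311336 CPM, a mean of 296792 ± 20567 CPM. It ranked first of all gene rows in both libraries, a ranking that leaves out the reads placed at more than 1 locus. Its share of gene counts was 28.2% in replicate 1 (95% Clopper-Pearson interval 28.2 to 28.3) and 31.1% in replicate 2 (31.1 to 31.2). These intervals, like all those below, cover counting error only and hold no term for variation between libraries. They take each read as independent, and amplified copies of 1 molecule cannot be told apart in these counts, so they may be too narrow.

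Mir100, whose 5p arm differs from that of Mir99a by 1 base, stood at 37831 and 39111 CPM. Its mean of 38471 ± 906 CPM was 7.71-fold below that of Mir99a, and its coefficient of variation, 2.35%, was the lowest of the 6 members. Mir99b, the member with 4 differences, stood at 21010 and 22825 CPM (mean 21918 ± 1284 CPM), 1.76-fold below Mir100. The order Mir99a, Mir100, Mir99b was the same in both libraries, and each step was larger than the SD of either gene in it. Mir99a made up 82.7% of its family in replicate 1 and 83.4% in replicate 2. In this and later pairs of values replicate 1 comes first.

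The miR-125 genes were lower. Mir125a was measured at 4703 CPM in the first replicate and at 6070 CPM in the second, a mean of 5387 ± 966 CPM, and had the highest coefficient of variation of the 6 members, 17.9%. Mir125b-1 stood at 2106 and 2359 CPM (mean 2233 ± 179 CPM), and Mir125b-2 at 2012 and 1859 CPM (mean 1936 ± 108 CPM). The row of Mir125b-1 exceeded that of Mir125b-2 in both libraries, by 297 CPM in the mean. The ratio of the rows was 1.05-fold in replicate 1 (interval 1.02 to 1.08) and 1.27-fold in replicate 2 (1.23 to 1.30). Taken within each library, the mean log2 ratio of 0.205 was close to its SD of 0.196. Reads that match only the arm shared by the copies cannot be assigned to either, so these rows cannot show which copy was higher. The lowest total count of a member, 17823 for Mir125b-2, still left a narrow counting interval of 0.197 to 0.205% in replicate 1.

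**Figure D1:**
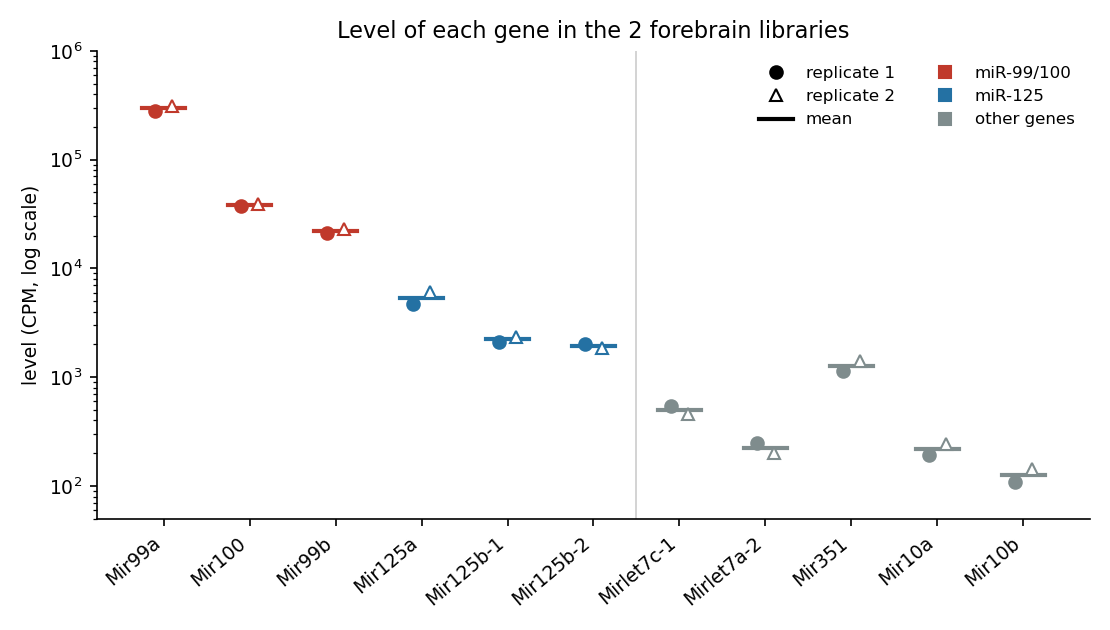
Level (CPM, log scale) of the 6 members and of 5 related genes in each library; filled circles are replicate 1, open triangles replicate 2 and horizontal lines the mean of the 2. Mir99a lies at 282249 and 311336 CPM, and the 3 miR-125 genes lie below all 3 miR-99/100 genes in both libraries, between 1859 and 6070 CPM.

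By family, the miR-99/100 genes held 34.1% of gene counts in replicate 1 and 37.3% in replicate 2 (35.7 ± 2.28%, n = 2). The miR-125 genes held 0.882% and 1.03% (0.956 ± 0.104%). The miR-99/100 sum was thus 38.7-fold the miR-125 sum in replicate 1 and 36.3-fold in replicate 2. Because 2 of the 3 miR-125 genes share a 5p arm and none of the miR-99/100 genes does, this ratio may be too high by an amount that was not tested. With Mir99a taken out of both the sum and the total, the other 5 members held 9.43% and 10.5%. Measured against all reads of a library, the 6 members held 13.3% and 13.9%.

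The members lie in 3 loci of the same order, a miR-99/100 gene, a let-7 gene and a miR-125 gene, all on the plus strand (mm10, GENCODE M21). On chromosome 16, Mir99a (77598936 to 77599000) is followed after 656 bp by Mirlet7c-1 (77599657 to 77599750) and after 47.3 kb by Mir125b-2 (77646273 to 77646343). All 3 lie in introns of Mir99ahg, a noncoding host transcript named after the miRNA. On chromosome 9, Mir100 (41531425 to 41531504) is followed after 5.21 kb by Mirlet7a-2 (41536716 to 41536811) and after 50.4 kb by Mir125b-1 (41581926 to 41582002), in introns of the noncoding genes 3110039I08Rik and Gm49317. The annotation also places Mir100 within an exon of Gm48742 on the opposite strand and Mir125b-1 within an exon of Gm28119 on its own strand. On chromosome 16, Mir99a and Mirlet7c-1 also lie in an intron of the protein-coding gene Gm11146 on the opposite strand. On chromosome 17 the genes are close together: Mir99b (17830188 to 17830257) lies in an intron of the protein-coding gene Spaca6, with Mirlet7e 94 bp and Mir125a (17830812 to 17830879) 554 bp downstream. Mir125a overlaps an exon of at least 1 transcript of Spaca6. Mirlet7e was not analysed here, since it had no row under its own name. The row of Gm25927 (17830343 to 17830459, minus strand) spans its position, and the opposite-strand counts of that row were not analysed.

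Opposite-strand reads had almost no part in the rows of the members. Mir99a, Mir99b, Mir100 and Mir125a had 0 opposite-strand counts in both libraries, and Mir125b-1 and Mir125b-2 had 1 each, in replicate 2. The levels of the host transcripts are not measured by RNA below 30 nt.

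**Figure D2:**
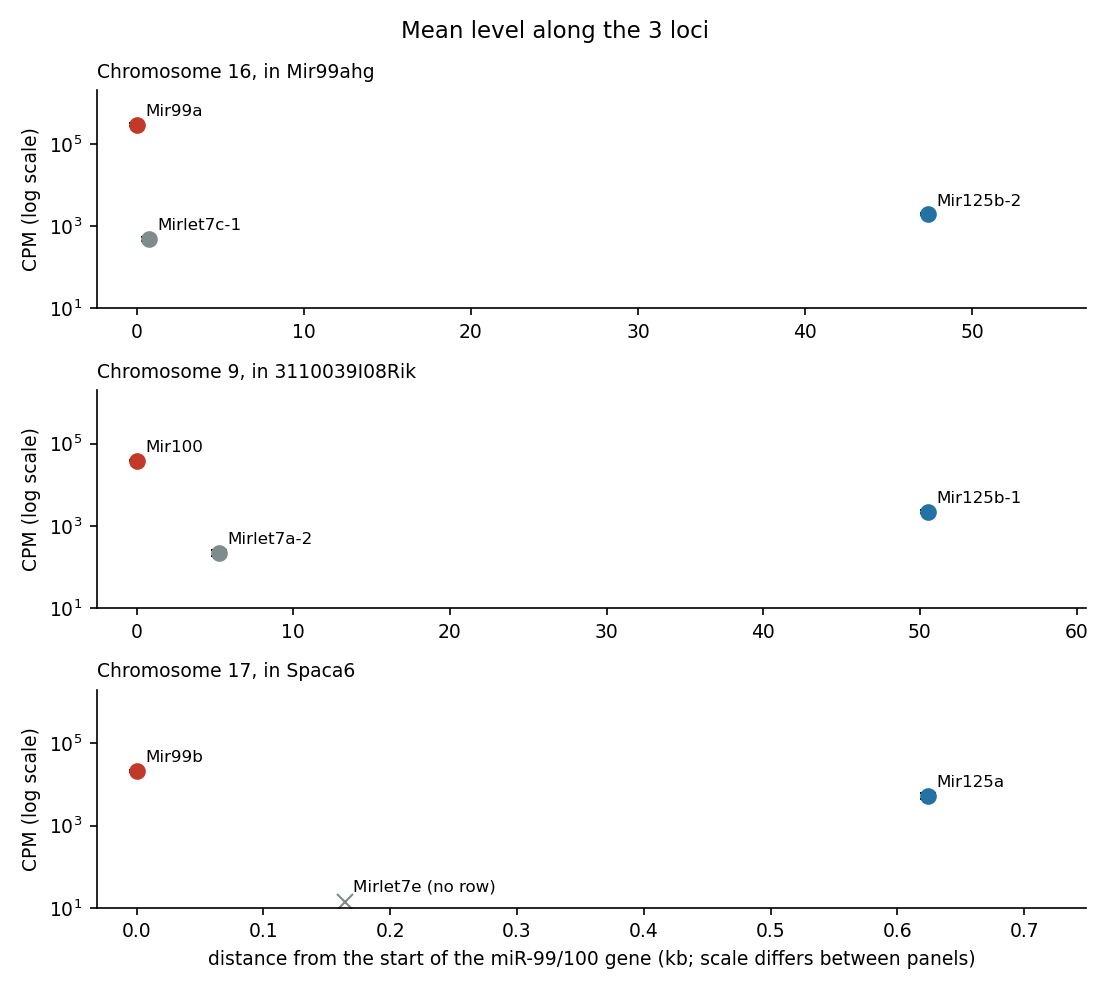
Mean level (CPM, log scale) against distance from the start of the miR-99/100 gene (kb) at the 3 loci, with red for miR-99/100, blue for miR-125 and grey for let-7. Error bars are the SD of 2 libraries and are mostly hidden by the points; the cross marks the position of Mirlet7e, which had no value. The miR-99/100 gene is the highest of the genes with a value at each locus.

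Genes of 1 locus differed widely in level. The chromosome 16 genes summed to 299225 ± 20399 CPM (29.9% of gene counts), of which nearly all was Mir99a. Its neighbour Mirlet7c-1, 656 bp away, stood at 540 and 455 CPM. The ratio of Mir99a to Mirlet7c-1 counts was 523 in replicate 1 (interval 502 to 544) and 685 in replicate 2 (656 to 714). The ratio of Mir99a to Mir125b-2 was 140 (137 to 143) and 167 (164 to 171). A ratio within a library does not depend on how the libraries are scaled to each other.

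At the chromosome 9 locus, which summed to 40927 ± 1051 CPM, Mirlet7a-2 stood at 248 and 199 CPM. The ratio of Mir100 to Mirlet7a-2 was 153 in replicate 1 (interval 144 to 162) and 196 in replicate 2 (184 to 209). Mir100 exceeded Mir125b-1 by 18.0-fold (17.6 to 18.3) and 16.6-fold (16.3 to 16.9). Here too the row of the let-7 gene was the lowest of the 3, and the Mir125b-1 row was 8.50-fold and 11.8-fold above it. Both genes share a 5p arm with another gene, so these rows cannot show the order of their levels. The chromosome 17 locus, at 27304 ± 2250 CPM for its 2 genes with a row, had the flattest profile, with Mir99b over Mir125a at 4.47-fold (4.40 to 4.53) in replicate 1 and 3.76-fold (3.71 to 3.81) in replicate 2.

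**Figure D3:**
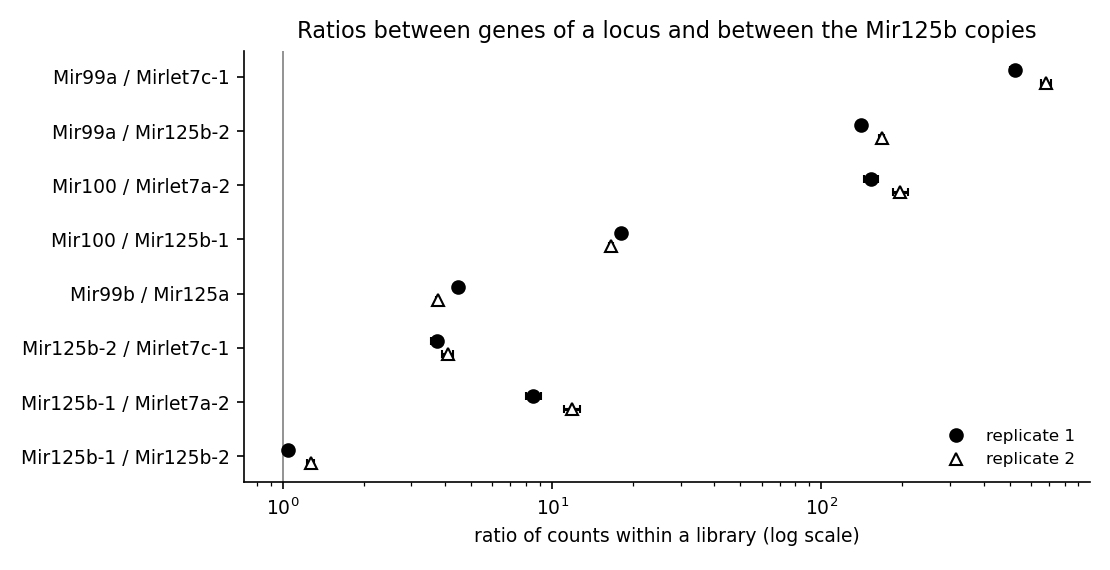
Ratio of the counts of pairs of genes within a library (log scale), replicate 1 as filled circles and replicate 2 as open triangles, with 95% Clopper-Pearson intervals that cover counting error only. The ratios run from near 1 for the Mir125b copies to 523 and 685 for Mir99a over Mirlet7c-1.

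Several of the low genes in these ratios share an arm with another gene. Mirlet7c-1 has its 5p arm in common with Mirlet7c-2, and Mirlet7a-2 has its 5p arm in common with Mirlet7a-1, as the Mir125b copies do with each other. The single ratio between genes that share no arm with another gene was that of Mir99b to Mir125a. Over the 10 let-7 genes with a row, the 5 whose 5p arm is also found in another gene stood between 224 and 3312 CPM. The 5 others stood between 6114 and 59954 CPM. Among the members, the pair with a shared arm stood at 1936 and 2233 CPM and the other 4 between 5387 and 296792 CPM. The part of reads placed at more than 1 locus in these differences was not tested.

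The library difference of each gene was tested by a two-sided exact binomial test on its counts, with Benjamini-Hochberg adjustment over the 457 genes with at least 10 counts in total. A gene was called at an adjusted p below 0.05. All 6 members were called, against 36.3% of the genes tested. Of the 67 genes with at least the count of the lowest member, a bound chosen after the values were seen, 79.1% were called, 34.3% higher and 44.8% lower in replicate 2, so most genes counted this deeply were called. By direction, 5 members were higher in replicate 2 (19.3% of all genes tested were) and 1 was lower (17.1% were). Of all called genes 53.0% were higher, against 42.9% with TMM scaling, 69.1% with a total that lacked Mir99a and 38.4% with the total of all reads.

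Mir125a differed the most of the 6, by a log2 ratio of replicate 2 over replicate 1 of 0.37 (interval 0.34 to 0.39; exact binomial test, adjusted p = 3.52e-174). Of the 370 detected genes, 93 had a larger absolute ratio. Mir125b-1 was higher by 0.16 on the log2 scale (exact binomial test, adjusted p = 3.41e-15). Mir125b-2 moved the other way, by -0.11 on that scale (adjusted p = 7.50e-07, exact binomial test). The rows of the Mir125b copies thus took opposite directions. They did so under every scaling run: library totals, TMM, DESeq2, a total without Mir99a and the total of all reads. Reads that match only the shared 5p arm cannot be assigned to either copy, so these ratios do not show a change of that arm.

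Mir99a was higher in replicate 2 by 0.14 (interval 0.14 to 0.14), with an adjusted p of the exact binomial test too small for the software to represent. Mir99b was higher by 0.12 (exact binomial test, adjusted p = 6.08e-76). Mir100 was higher by 0.048 (adjusted p of the exact binomial test = 3.57e-22), but with TMM scaling it was not called (adjusted p = 0.215 by the exact binomial test) and against the total of all reads it was lower, by a log2 ratio of -0.016. These are small differences: the median absolute log2 ratio was 0.13 over the 6 members, 0.19 over the 370 detected genes and 0.12 over the 67 genes of like depth. The median signed ratio was 0.13 over the members, 0.047 over all genes tested and -0.017 over the 67 genes of like depth. Over the members it was 0.066 against the total of all reads and 0.19 with a total that lacked Mir99a, the lowest and highest of the scalings run.

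The let-7 neighbours went the other way. Mirlet7c-1 was lower in replicate 2, at -0.25 on the log2 scale (exact binomial test, adjusted p = 4.01e-08), and Mirlet7a-2 by -0.31 (exact binomial test, adjusted p = 4.24e-06). The log2 ratio of Mir99a to Mirlet7c-1 was accordingly 0.39 higher in replicate 2 than in replicate 1, and that of Mir100 to Mirlet7a-2 was 0.36 higher. Over the let-7 family, 9 of the 10 genes with a row were called lower, none was called higher and 1, Mirlet7b, was not called, with a median of -0.24. Of all genes tested 17.1% were lower and 19.3% higher, and of the 67 genes with at least the count of the lowest member 44.8% and 34.3%. Of the 10 let-7 genes, 5 share a 5p arm with another gene, both neighbours among them. Reads that match only a shared arm cannot be assigned to 1 gene, and their part in these ratios was not tested. Under the other scalings 9 or 10 let-7 genes were lower, and 1 was higher when the total lacked Mir99a. No difference between the libraries has a replicate check, and the test covers counting error only.

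**Figure D4:**
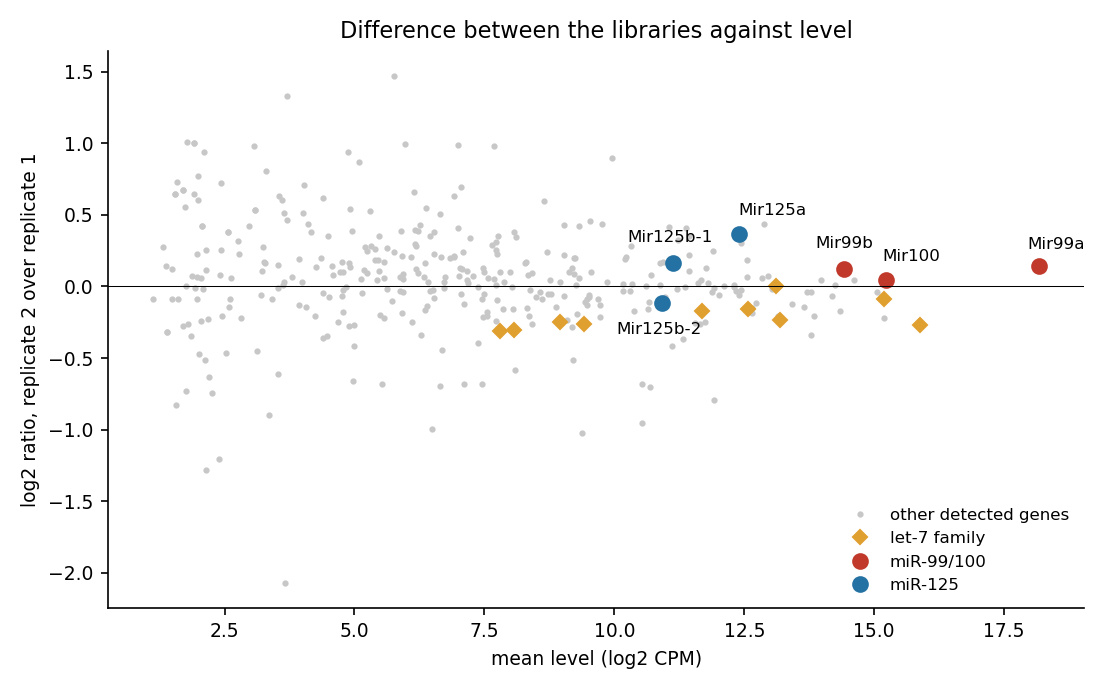
Log2 ratio of replicate 2 over replicate 1 against mean level (log2 CPM) for the 370 detected genes, with the members and the let-7 family coloured. Of the members, 5 lie above 0 and Mir125b-2 lies below it, and 9 of the 10 let-7 genes lie below 0.

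Other genes carry the same seeds or much of the same sequence. No other gene of the miRNA table has a mature arm with the seed ACCCGUA of miR-99/100. The seed CCCUGAG of miR-125 is also held by Mir351, on chromosome X (53053255 to 53053353, minus strand), and by Mir6367 and Mir6394, which had no count in either library.
Mir351 5p: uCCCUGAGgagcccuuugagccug
Mir351 shares its first 8 bases with Mir125a and stood at 1151 and 1401 CPM (mean 1276 ± 177 CPM), below every member in both libraries. It was higher in replicate 2 by 0.28 on the log2 scale (exact binomial test, adjusted p = 2.20e-25).

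Mir10a and Mir10b, which lie in the Hox gene clusters and mark posterior parts of the body, are relatives of miR-99/100 with a shifted seed.
Mir10a 5p: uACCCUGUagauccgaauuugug
Mir10b 5p: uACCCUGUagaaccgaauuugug
The run guagauccga of 10 bases is common to Mir99a and Mir10a. In this forebrain tissue Mir10a stood at 191 and 244 CPM (mean 218 ± 37.5 CPM) and Mir10b at 109 and 145 CPM (mean 127 ± 25.2 CPM). Both were below all 6 members in each library.

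The detected genes just above and just below each member in mean CPM were also taken. Their distance from the member is given as the difference of mean log2 CPM over the 2 libraries. Mir99a had no near neighbour: Mirlet7g, the next gene, stood 2.31 below it on the log2 scale. Mir100 was separated from Mirlet7g, the gene above it. By the mean, Mir100 lay just above Mirlet7i, by 0.044, and Mir99b just above Mir30e, by 0.088. Neither of these last pairs was separated by more than the larger SD, and both orders were reversed in replicate 1. There Mirlet7i stood at 38486 CPM against 37831 for Mir100, and Mir30e at 21887 CPM against 21010 for Mir99b. Mir99b was separated from Mir130a, the gene above it. Mir125a stood between Mir127, an imprinted miRNA of the Dlk1-Dio3 region, and Mir16-1, within 0.041 of both on the log2 scale. Mir125b-1 stood between Mir381 and Mir541, and Mir125b-2 between Mir1983 and Mir298. None of these 6 neighbours of the miR-125 genes was separated from its member by more than the larger SD. By mean level Mir125a ranked 36, Mir125b-1 62 and Mir125b-2 67 of the 1973 rows. In the single libraries Mir125a ranked 40 and 32, Mir125b-1 63 and 61, and Mir125b-2 66 and 69.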

How the data were processed

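Small RNA below 30 nt was sequenced from 2 libraries of day 15.5 mouse forebrain. The deposited files held raw counts of reads per miRNA gene, with no normalization, from alignments to mm10 with GENCODE M4 annotation, per the deposited notes. For the aligner and counter, nothing is given in the sources used here. Of the single-strand columns, the one with more counts was used as sense. The 4 rows that name no gene stayed out of library sizes; beside the multi-mapping row they held 14.3% and 18.2% of reads as unmapped, 3.03% and 3.07% as outside features, and 0 as ambiguous. Names and coordinates came from GENCODE M21, on the same build, which matched 1894 of 1973 identifiers.

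CPM, mean and SD (n = 2) were computed, and log2 ratios of replicate 2 over 1 with 0.5 counts added. The exact binomial test used scipy 1.17.1 over genes with at least 10 counts in total, with Benjamini-Hochberg adjustment at 0.05. It was tried on simulated counts with known changes. Those counts held counting error only, so the trial cannot show how the test performs where libraries vary further. edgeR's quasi-likelihood test had no contrast. Alternatives were TMM factors (edgeR 4.0.16), size factors (DESeq2 1.42.0), totals without Mir99a or of all reads, the either-strand column, count minimums of 100 and 1, no added count, and leaving out each replicate. A floor of 3 counts was 0.672 CPM in the first library and 0.631 in the second.

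The members, gene lists and tests were chosen with earlier results of these data known. Genes were named by a rule: the members, let-7 genes of their loci, hosts, genes sharing a member's 5p seed, Mir10a and Mir10b, the nearest detected gene above and below each member, the highest and lowest let-7 genes, and the highest gene of each marker list. Mirlet7b, Mirlet7c-2, Mirlet7a-1 and Mir124a-3 were named after their values were seen, and Gm25927 for its position. The highest genes of the marker lists not named in the results were Mir451a (erythroid, 92.0 CPM), Mir223 (immune, 88.0 CPM), Mir143 (mesenchyme, 3459 CPM), Mir206 (muscle, 12.7 CPM) and Mir192 (liver, 84.9 CPM).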

Additional observations from a re-analysis of the deposited data

How the results depend on the processing

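No paired analysis was possible because the design holds 1 group. Against the total of all reads, which takes in reads outside gene rows, the levels were 110253 CPM for Mir99a, 14302 for Mir100, 8143 for Mir99b, 1998 for Mir125a, 829 for Mir125b-1 and 721 for Mir125b-2, and the shares were 13.6% for the 6 members, 13.3% for miR-99/100 and 0.355% for miR-125. With Mir99a left out, these shares were 9.96%, 8.60% and 1.36%. The log2 ratio of Mir100 was 0.0078 with TMM scaling, where it was not called, and -0.016, reversed, against all reads; the cause was not tested. The other 5 members kept direction and call under all 8 alternatives of scaling, strand column, count minimum and added count, and between 156 and 181 genes were called in all. Leaving out each replicate gave a share of 35.0 to 38.4% for the 6 members. A value from 1 library has no error. Mir125b-1, Mir125b-2, Mirlet7a-2 and Mirlet7c-1 share a 5p arm with another gene, and the part of reads placed at more than 1 locus in their values was not tested.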
